A study of Mus musculus with 6 samples.

Results

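The iron and 2-oxoglutarate dependent dioxygenases form a class of enzymes, and 36 of their genes were described here among the 54532 genes of the count table. They were chosen by name as members of the class that nickel is known to inhibit, and comprised 17 histone lysine demethylases with a Jumonji C (JmjC) domain, the 3 TET enzymes, 9 AlkB homologs including Fto, and 7 protein hydroxylases. All 36 names were found in the gene annotation. Primary mouse bone marrow mesenchymal stem cells (BMSCs) of wild-type genotype were sequenced as bulk mRNA after 7 days of osteogenic differentiation. The medium of both groups held dexamethasone, ascorbic acid and β-glycerophosphate. The control group (3 libraries) received vehicle, and the Ni group (3 libraries) received nickel ions at 0.1 μM, given as NiCl2. The 3 libraries of each group were described as independent biological replicates, without a statement of whether each came from its own mouse, and the age and sex of the donors of these cells were not given in the sources used here.

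These enzymes hold a ferrous iron through a histidine, an aspartate or glutamate close behind it, and a second, more distant histidine. They split molecular oxygen with 2-oxoglutarate as co-substrate, release succinate and carbon dioxide, and place a hydroxyl group on their target. On a methyl group bound to nitrogen the hydroxylated product falls off as formaldehyde, so the same chemistry removes methyl marks from histones, DNA and RNA, whereas on proline, asparagine, arginine or lysine the hydroxyl group stays. Ascorbate keeps the iron reduced, and divalent nickel can occupy the iron site and stop the reaction. The libraries measured mRNA and carry no information on the activity of the enzymes.

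The stretches of coding sequence below show the metal site that the class shares, and how far close relatives differ in it. Capitals mark the codon of the first histidine and, 1 codon further on, that of the aspartate or glutamate. The 4 Kdm4 genes and the 3 Tet genes are shown because they are paralogs whose reads must be told apart, Kdm3a, Fto and Egln2 because the comparisons below turn on them, and Alkbh5 as the most highly expressed nucleic acid demethylase of the class.
Kdm3a: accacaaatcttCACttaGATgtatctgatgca
Kdm4a: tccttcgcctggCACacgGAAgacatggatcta
Kdm4b: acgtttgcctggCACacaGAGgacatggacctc
Kdm4c: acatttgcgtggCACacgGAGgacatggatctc
Kdm4d: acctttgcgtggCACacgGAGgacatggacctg
Tet1: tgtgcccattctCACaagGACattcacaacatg
Tet2: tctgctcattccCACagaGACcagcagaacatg
Tet3: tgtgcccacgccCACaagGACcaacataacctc
Alkbh5: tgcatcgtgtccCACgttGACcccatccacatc
Fto: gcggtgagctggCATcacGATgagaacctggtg
Egln2: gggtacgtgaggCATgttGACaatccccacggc

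The sequences were read 5′ to 3′ on the strand of the gene from GENCODE M21 transcripts on build GRCm38. Each lay within 1 exon. The Kdm3a stretch was at chr6:71592128-71592160 (minus strand, exon 23 of 27), Kdm4a at chr4:118168426-118168458 (minus strand, exon 5 of 22) and Kdm4b at chr17:56355983-56356015 (plus strand, exon 5 of 23). Kdm4c was at chr4:74298561-74298593 (plus strand, exon 5 of 22) and Kdm4d at chr9:14463976-14464008 (minus strand, exon 2 of 2). Tet1 was at chr10:62814454-62814486 (minus strand, exon 11 of 13), Tet2 at chr3:133471358-133471390 (minus strand, exon 10 of 12) and Tet3 at chr6:83373212-83373244 (minus strand, exon 10 of 12). Alkbh5 was at chr11:60539023-60539055 (plus strand, exon 1 of 4), Fto at chr8:91409769-91409801 (plus strand, exon 3 of 9) and Egln2 at chr7:27160342-27160374 (minus strand, exon 3 of 6). The Kdm4 genes carried a glutamate codon at the second position, and the other 7 genes shown an aspartate codon. Between Kdm4 genes, from 3 (Kdm4c and Kdm4d) to 7 (Kdm4a and Kdm4b) of the 33 bases differed, and between Tet genes 9 or 10. Over whole transcripts, Kdm4a, Kdm4b and Kdm4c shared no stretch of 50 bases with any other gene, Tet2 none, Tet1 0.449% of its stretches and Tet3 0.0360%. Kdm4d shared 10.2% with its neighbouring copy Kdm4dl.

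The 6 libraries held between 16101033 and 18642504 counts, and the 36 genes together took between 0.167% and 0.184% of each. In total, 35 of the 36 genes passed the filter on low counts and were tested among 14624 genes. Values in CPM are counts scaled to the library total, and those of single genes also carry the TMM normalization factor, whereas sums over marker lists do not. Control replicate 3 stood apart from the other 2 controls: the summed level of 10 osteoblast markers was 20591 CPM there, against 10428 and 10212 in control replicates 1 and 2 and 22829 to 30112 in the Ni libraries. The 12 stromal markers summed to between 10223 and 14626 CPM in the control group and between 16242 and 18920 in the Ni group. This sum was led by the matrix genes Col1a2, Fn1 and Col3a1, and the markers did not move together. Of the 12, 9 had a log2 fold change above 0 and 3 below, namely Cxcl12 (-0.47), Lepr (-0.13) and Thy1 (-0.07). The 15 macrophage markers made up between 2.74% and 3.25% of the counts of every library, a sum led by Lyz2. Of these 15 markers, 11 had a log2 fold change below 0 (median -0.19). Aif1 (-0.98), Tyrobp (-0.45), Itgam (-0.40) and Ptprc (-0.36) were lower in the Ni group at an unadjusted p of 0.05 and 0 were higher. Of all tested genes, 5.83% were lower and 7.59% higher at this threshold. In the control group, the macrophage genes Adgre1 and Csf1r averaged 3354 and 1859 CPM. The stromal receptors Pdgfrb and Pdgfra averaged 92.6 and 66.1 CPM there, and the stromal matrix gene Col1a2 4286 CPM. The part of macrophages in the levels of the members was not tested. The 3 erythroid and the 4 B and T cell markers stayed at or below 0.288 CPM in sum. The counts of members below are therefore given with and without control replicate 3. In bulk libraries, fewer cells of a type and less RNA per cell cannot be told apart.

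Levels of the members were compared as FPKM, which scales fragments to gene length and library size. Egln2 was the highest, with 67.6 ± 23.7 FPKM in the control group and 45.7 ± 9.02 in the Ni group (mean ± SD, n = 3 each). Alkbh5 followed with 24.8 ± 3.02 and 27.4 ± 0.704 FPKM, and Kdm4a was the third with 13.2 ± 0.795 and 12.7 ± 0.797 FPKM. Kdm4a, a demethylase of histone H3 lysines 9 and 36, gave 1458, 1261 and 1196 counts in the control libraries and 1386, 1355 and 1242 in the Ni libraries. Egln2 and Alkbh5 did not overlap with each other in any library, and Kdm4a lay below both. From Kdm5c, the fourth, down to Alkbh8 the levels formed a gradual slope, and for 25 of the 28 pairs of neighbours in this order the ranges over the 6 libraries overlapped. Only Kdm8, Hspbap1, Tet1 and Kdm4d had a mean at or below 1 FPKM over the 6 libraries. Tet1 reached 0.108 ± 0.0110 FPKM in the control group and 0.154 ± 0.0152 in the Ni group. Kdm4d had 0 counts in each control library and 4, 0 and 1 counts in the Ni libraries, around the 3 counts that a count of 0 allows, which correspond to between 0.161 and 0.186 CPM, and no fold change was computed for it.

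**Figure D1:**
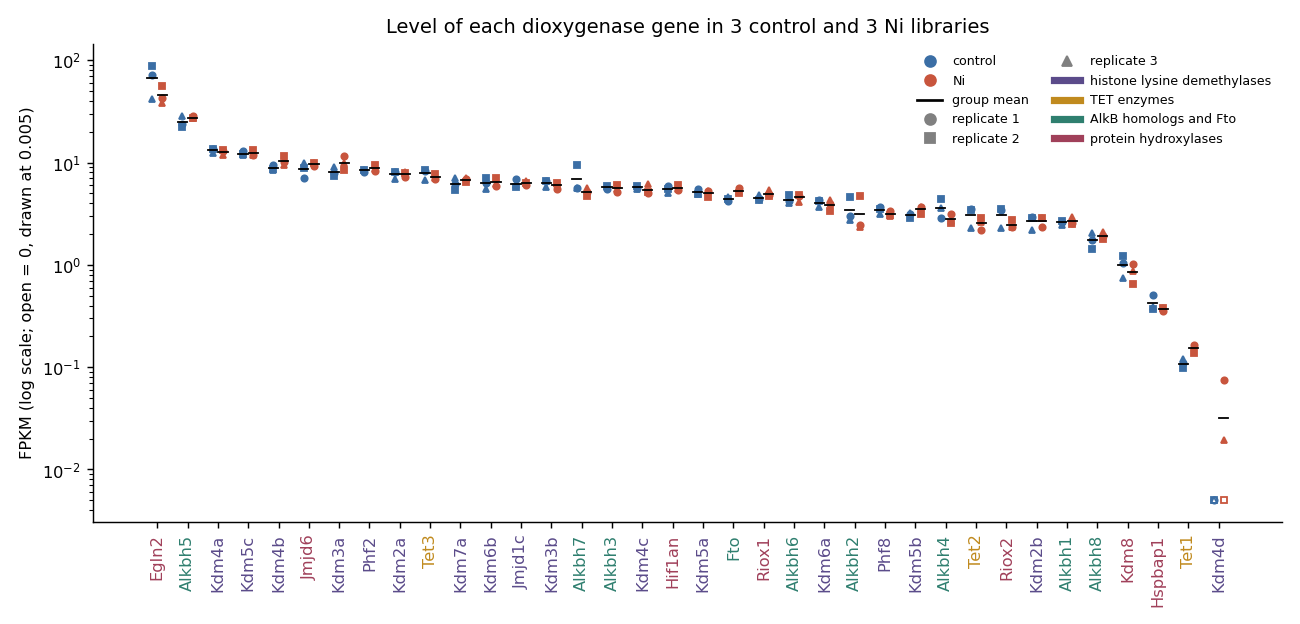
FPKM on a log axis of the 36 dioxygenase genes, ordered by mean level, in the 3 control (blue) and 3 Ni (red) libraries, with marker shape for replicate number and black bars for group means. Egln2 and Alkbh5 lie above the other genes, Tet1 and Kdm4d lie lowest, and open markers for Kdm4d stand for a value of 0.

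The first comparison asked whether low-dose nickel during osteogenic differentiation changed the mRNA of the enzymes it can inhibit. No member passed an adjusted p of 0.05 in edgeR's quasi-likelihood test, where the share of all tested genes past it was 0% as well. At an unadjusted p of 0.05, Kdm3a and Fto were higher in the Ni group and no member was lower, against 7.59% of all tested genes higher and 5.83% lower. DESeq2 likewise gave 0 members at an adjusted p of 0.05. At an unadjusted p of 0.05 it gave Kdm3a and Fto as higher and Egln2 as lower (DESeq2 adjusted p = 0.202). Beside them, 4.49% of genes were higher and 3.32% lower, out of 25876 genes with any count. These shares are therefore not on the same footing as those over the 14624 filtered genes. The median log2 fold change (Ni over control) of the 35 members was 0.0019, with 18 above and 17 below 0, beside a median of -0.0099 over all tested genes. The sign of the members' median was not stable, being -0.040 with the trend by gene length removed and -5.6e-05 with library totals as the only scaling. The members ranged from -0.57 (Egln2) to 0.50 (Tet1).

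The precision was enough to bound most members. The 95% interval of the fold change lay within 1.5-fold in either direction for 25 of the 35 members and within 2-fold for 33. The median standard error of the log2 fold change was 0.294 for the 4 members with a mean count up to 100, 0.147 for the 8 between 100 and 500, and 0.107 for the 23 above 500. The exceptions to the 2-fold bound were Tet1, with few counts, and Egln2, with a wide spread between control libraries.

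**Figure D2:**
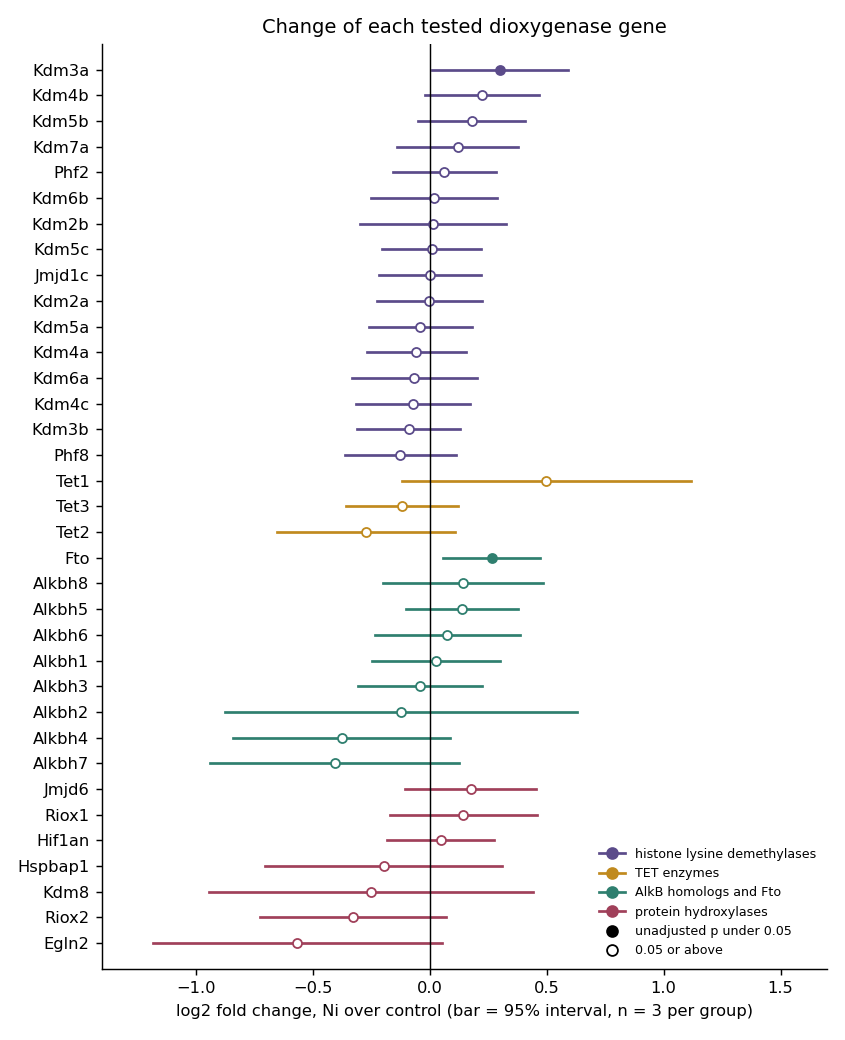
Log2 fold change of Ni over control for the 35 tested dioxygenase genes with 95% intervals (n = 3 per group), coloured by enzyme group and filled where the unadjusted p is below 0.05. The intervals of Kdm3a and Fto lie above 0, and those of the other 33 genes cross it.

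Control replicate 3 was singled out from these same data. For 31 of the 35 tested members, it and the Ni group lay on the same side of the other 2 controls. The p of a fit without it are therefore descriptive and give no separate support. Without control replicate 3, 4 members passed an adjusted p of 0.05 in the same test. Kdm3a was higher (log2 fold change 0.40, adjusted p = 0.0486), and Egln2 (-0.81, adjusted p = 0.00637), Tet2 (-0.44, adjusted p = 0.0283) and Riox2 (-0.49, adjusted p = 0.0366) were lower. Of all 15044 genes tested in that fit, 8.69% passed as higher and 6.49% as lower, so that 1 of 35 members higher was below the background and 3 of 35 lower lay close to it. The median of the members was then -0.066, with 22 of 35 below 0. The number of members at an unadjusted p of 0.05 was 10 without control replicate 3 (5 higher and 5 lower, beside 15.2% and 12.2% of all genes), 1 without control replicate 1 (6.27% of all genes in either direction), 0 when control replicate 2 was left out (5.79%), 0 when it was Ni replicate 1 (6.6%), 4 without Ni replicate 2 (16.3%) and 2 without Ni replicate 3 (6.96%).

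The groups did not overlap for 3 members with all libraries, Fto and Tet1 being higher and Alkbh7 lower in the Ni group, where 7.97% of all tested genes were higher and 6.71% lower without overlap. Without control replicate 3 the number rose to 18, 9 in each direction, beside 22.2% and 20.8% of all genes. It was 4 without control replicate 1 (20% of all genes in either direction) and without control replicate 2 (19.6%), 6 without Ni replicate 1 (20.5%) and without Ni replicate 2 (35.1%), and 5 without Ni replicate 3 (21.9%).

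**Figure D3:**
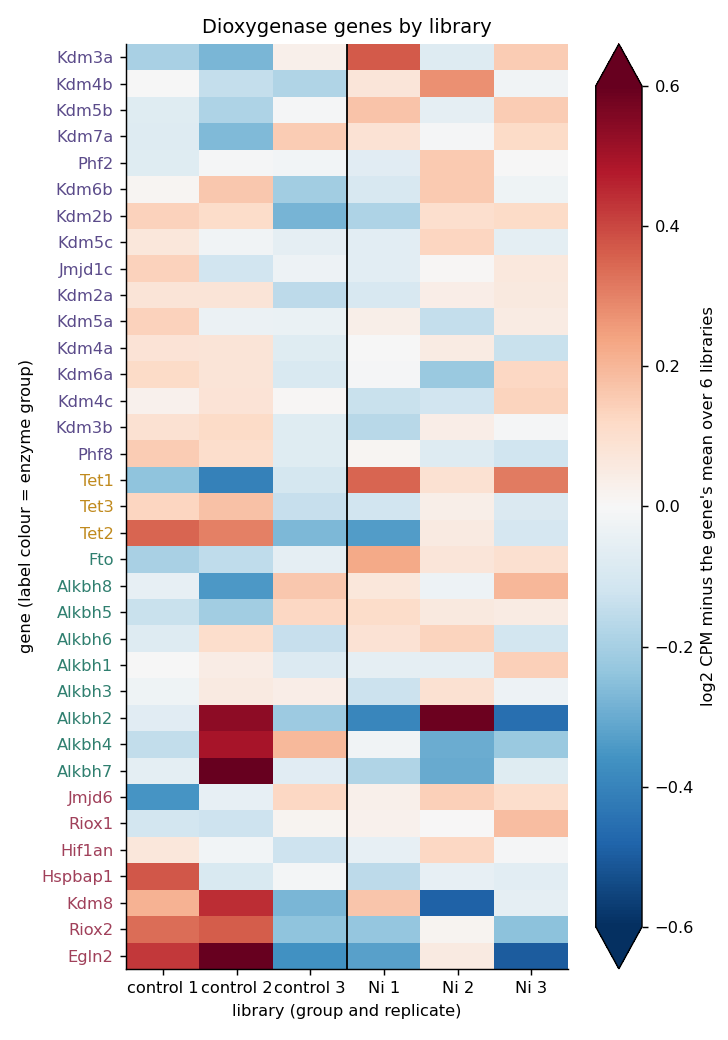
Log2 CPM of the 35 tested dioxygenase genes in each of the 6 libraries, as the difference from the mean of the gene over all libraries (red higher, blue lower, colours saturating at 0.6). For Egln2, Riox2 and Tet2, control replicates 1 and 2 are red and control replicate 3 is blue like most Ni libraries. For Alkbh2, Alkbh4 and Alkbh7, control replicate 2 stands out from the other controls. For Alkbh2, Ni replicate 2 stands out from the other Ni libraries as well.

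Among the histone lysine demethylases, which remove methyl groups from lysines of histone tails, 9 of the 16 tested genes had a log2 fold change above 0 and 7 below, with a median of 0.0050 that turned to -0.032 with the trend by gene length removed, and a range from -0.13 (Phf8) to 0.30 (Kdm3a). Kdm3a removes methyl marks from histone H3 lysine 9 and is itself a known target gene of hypoxia-inducible factor (HIF). Kdm3a gave 64.7, 61.2 and 75.6 CPM in control replicates 1 to 3 and 95.6, 70.3 and 82.5 CPM in Ni replicates 1 to 3. The lowest Ni library lay below the highest control library, so the groups overlapped. The fold was 1.23 (95% interval 1.01 to 1.50), the unadjusted p 0.0426 and the adjusted p 0.364 in edgeR. Without Ni replicate 1, its highest library, the log2 fold change of Kdm3a was 0.19 in place of 0.30.

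Kdm4b, also a demethylase of histone H3 lysine 9, had the next highest change of this group, with 43.9 ± 2.87 CPM in the control and 51.2 ± 5.45 in the Ni group (n = 3 each). Its log2 fold change of 0.22 had an interval from -0.02 to 0.47. Kdm5b, a demethylase of histone H3 lysine 4, had 51.3 ± 3.24 and 58.1 ± 4.93 CPM (log2 fold change 0.18, interval -0.05 to 0.41). Kdm6a and Kdm6b, which act on the repressive methyl mark at histone H3 lysine 27, had log2 fold changes of -0.06 and 0.02, with intervals from -0.33 to 0.20 and from -0.25 to 0.29. Kdm6b was expressed at 6.30 ± 0.803 FPKM in the control group and 6.40 ± 0.565 in the Ni group. Kdm6a and Kdm5c are X-linked and have Y-linked relatives, Uty and Kdm5d, which were expressed in every library. Xist gave 4, 13 and 6 counts in the control and 0, 0 and 1 in the Ni libraries. Together this is the pattern of male cells. Kdm6a shared 0.140% of its 50-base stretches with Uty, and Kdm5c 0.151% with other genes.

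Kdm2a, Jmjd1c, Kdm5c, Kdm2b and Kdm6b had log2 fold changes within 0.02 of 0. For Kdm2a the interval ran from -0.22 to 0.22, and for Kdm5c from -0.20 to 0.22. Kdm3b, Kdm4a, Kdm4c, Kdm5a and Phf8 lay between -0.13 and -0.04, and Phf2 and Kdm7a at 0.06 and 0.12. In Kdm3b, 24.6% of the exon bases overlapped another gene on the opposite strand.

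The TET enzymes oxidise 5-methylcytosine in DNA, the first step of active demethylation. Tet3 was the main transcript of the 3 by level, at 7.83 ± 0.895 FPKM in the control and 7.23 ± 0.371 in the Ni group, Tet2 was at 3.08 ± 0.686 and 2.56 ± 0.336, and Tet1 was the lowest of the 3. Tet1 gave 31, 24 and 31 counts in the control libraries and 47, 37 and 45 in the Ni libraries. The lowest Ni library exceeded the highest control library. The fold of 1.41 had an interval from 0.920 to 2.17 and an adjusted p of 0.451 in edgeR, and the exact two-sided permutation test gave 0.1, the smallest p that 3 against 3 libraries allow.

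Tet2 gave 60.0, 58.1 and 39.1 CPM in the control libraries and 37.3, 49.0 and 44.0 CPM in the Ni libraries. Control replicate 3 was the lowest control and lay within the Ni range. The log2 fold change was -0.27 (interval -0.65 to 0.11, adjusted p = 0.509 in edgeR) and -0.44 without control replicate 3. Tet3 gave 138, 142 and 115 CPM against 116, 129 and 119 CPM, with control replicate 3 lowest of all. Its log2 fold change was -0.12 (interval -0.36 to 0.12).

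The AlkB homologs and Fto remove alkyl groups from nucleic acids or modify tRNA, and some act on proteins. Of the 9 genes, 5 had a log2 fold change above 0 and 4 below, with a median of 0.027. Fto, a demethylase of N6-methyladenosine (m6A) and related marks in RNA, gave 55.6, 57.3 and 61.2 CPM in the control libraries and 74.3, 66.9 and 67.9 CPM in the Ni libraries. All 3 Ni libraries were above all 3 control libraries. The fold of Fto was 1.20 (95% interval 1.04 to 1.39), with an unadjusted p of 0.0178 and an adjusted p of 0.323 in edgeR. When 1 library at a time was left out, its log2 fold change ran from 0.22 to 0.31, and the adjusted p was 0.0527 without control replicate 3. Alkbh5, the other m6A demethylase, gave 143, 136 and 171 CPM in the control and 169, 163 and 162 CPM in the Ni libraries. Control replicate 3 was the highest of the 6. The log2 fold change of Alkbh5 was 0.14 (interval -0.10 to 0.38), and 0.25 without control replicate 3 (adjusted p = 0.0722 in edgeR).

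Alkbh7 is a mitochondrial member that takes part in programmed necrosis. Alkbh7 gave 5.85, 9.76 and 5.82 CPM in the control libraries and 5.37, 4.95 and 5.80 CPM in the Ni libraries. The lowest control and the highest Ni library nearly touched, and control replicate 2 was far above the rest. The groups of Alkbh7 overlapped with DESeq2's size factors or upper quartile factors in edgeR, with other filters, in DESeq2 and in limma. The log2 fold change was -0.41 (interval -0.94 to 0.12, adjusted p = 0.474 in edgeR) and -0.12 without control replicate 2. Alkbh4 and Alkbh2 were also highest among the controls in control replicate 2, with 111, 150 and 128 counts and with 62, 82 and 51 counts in control replicates 1 to 3. Their log2 fold changes were -0.38 (interval -0.84 to 0.09) for Alkbh4 and -0.12 (interval -0.87 to 0.63) for Alkbh2, a repair enzyme for alkylated DNA bases. In Ni replicates 1 to 3, Alkbh4 gave 122, 95 and 104 counts and Alkbh2 50, 93 and 47. Ni replicate 2 was thus the highest of all 6 libraries for Alkbh2. The log2 fold change of Alkbh2 was -0.54 without Ni replicate 2 and 0.14 without control replicate 2. Alkbh1, Alkbh3, Alkbh6 and Alkbh8 lay between -0.04 and 0.14. Exon bases overlapping another gene on the opposite strand were 29.5% for Alkbh2, and 9.66% of the stretches of Alkbh6 were shared with a gene that overlaps it.

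The protein hydroxylases had the lowest group median, -0.20, with 3 of 7 genes above 0 and 4 below. Egln2 (PHD1), which hydroxylates prolines of HIF-α and so marks it for degradation, gave 204, 249 and 118 CPM in the control libraries and 121, 158 and 108 CPM in the Ni libraries. Control replicates 1 and 2 were above every Ni library, and control replicate 3 lay within the Ni range. The fold was 0.676 (interval 0.440 to 1.04, adjusted p = 0.400 in edgeR). Without control replicate 2 the log2 fold change of Egln2 was -0.32 in place of -0.57, and without control replicate 3 it was -0.81. Some markers of other cell types had a similar order of libraries. Aif1, a macrophage marker, gave 213, 280 and 107 CPM in the control and 94.6, 126 and 84.0 CPM in the Ni libraries. Among other macrophage markers, Adgre1 was also lowest among the controls in control replicate 3 (3729, 3781 and 2553 CPM). Lyz2 (10329, 9616 and 15097 CPM), Mrc1 (1587, 1391 and 2543 CPM) and Cd68 (314, 288 and 370 CPM) were instead highest in control replicate 3. Pecam1, an endothelial marker, gave 46.7, 54.2 and 26.6 against 25.3, 32.4 and 23.5 CPM. Among 6 osteoclast markers, Acp5, which made up most of their sum, had a log2 fold change of -0.90 and was lowest among the controls in control replicate 3, but Ctsk gave 62.6, 66.3 and 137 CPM against 140, 114 and 154 CPM, Mmp9 was highest in control replicate 3 (53.2, 75.7 and 86.5 CPM in the control libraries), and Dcstamp, Ocstamp and Oscar were at or below 0.504 CPM. Of the other 3 endothelial markers, Cdh5 was also highest in control replicate 3 (12.5 CPM), and Kdr had a log2 fold change of 0.09. These names were chosen after their values were seen. The part of such cells in the level of Egln2 was not tested.

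Riox2, a ribosomal histidine hydroxylase, showed the same order of control libraries. Riox2 gave 18.4, 18.8 and 12.4 CPM in the control and 12.4, 14.7 and 12.3 CPM in the Ni libraries, with control replicate 3 within the Ni range. The log2 fold change was -0.33 (interval -0.72 to 0.07, adjusted p = 0.441 in edgeR). Of its exon bases, 22.4% overlapped Crybg3 on the opposite strand, and the strand setting of the counting was not given in the sources used here, so reads of the pair cannot be told apart there. Its paralog Riox1 had a log2 fold change of 0.14 (interval -0.17 to 0.46), with 31.9% of its exon bases overlapped. Jmjd6, a lysyl hydroxylase of splicing factors, had 40.6 ± 6.63 CPM in the control and 45.8 ± 1.76 in the Ni group (log2 fold change 0.18, interval -0.11 to 0.46). Hif1an (FIH), which hydroxylates an asparagine of HIF-α, had 36.5 ± 2.45 and 37.7 ± 2.37 CPM (0.05, interval -0.18 to 0.28). Kdm8, an arginine hydroxylase, and Hspbap1 were low in all libraries. Kdm8 had 27 to 47 counts, and Hspbap1 gave 89, 56 and 62 counts in the control and 62, 63 and 65 in the Ni libraries. They had log2 fold changes of -0.25 (interval -0.94 to 0.44) and -0.20 (interval -0.70 to 0.31).

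**Figure D4:**
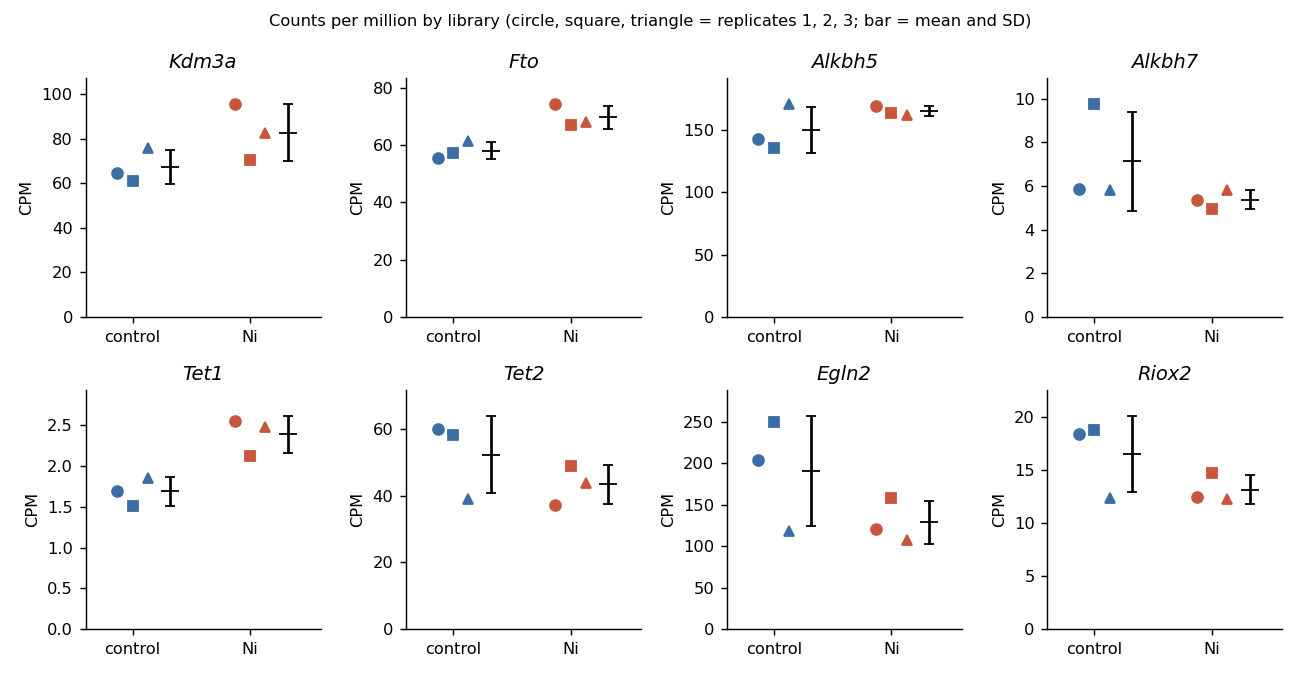
CPM of 8 dioxygenase genes in the control (blue) and Ni (red) libraries, with a circle, square and triangle for replicates 1, 2 and 3 and a bar for the group mean and SD (n = 3), each axis starting at 0. Fto and Tet1 are higher in all 3 Ni libraries, and for Tet2, Egln2 and Riox2 control replicate 3 sits within the range of the Ni libraries.

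The members were set beside genes that share their chemistry or work on the same marks. Of 27 other 2-oxoglutarate oxygenases that were tested of 31 listed, 8 were higher in the Ni group at an unadjusted p of 0.05 and 0 lower. Beside them, 7.59% of all tested genes were higher and 5.83% lower. The median log2 fold change of the 27 was 0.21. These 8 comprised the collagen prolyl and lysyl hydroxylases P3h1, P3h3, P4ha1, P4ha2, Plod2 and Plod3, and the HIF prolyl hydroxylases Egln1 and Egln3. P3h3, P4ha1, Egln1 and P3h1 had the smallest p. P4ha1, which hydroxylates collagen prolines in the endoplasmic reticulum, gave 3742, 3291 and 5619 counts in the control and 8104, 6028 and 7855 counts in the Ni libraries (log2 fold change 0.71, SE 0.20). The log2 fold change was 0.59 (SE 0.17) for P3h3, 0.59 (SE 0.18) for P3h1 and 0.43 (SE 0.13) for Egln1, and none of the 27 passed an adjusted p of 0.05 in edgeR (lowest 0.292). Without control replicate 3, 11 of 28 were higher at an adjusted p of 0.05 and 0 lower, beside 8.69% and 6.49% of all genes. The summed osteoblast markers given above moved with this list, and their part in it was not tested.

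Of 8 HIF genes, Egln1 and Egln3 were higher at an unadjusted p of 0.05 and 0 were lower, beside 7.59% and 5.83% of all tested genes. The median log2 fold change of the 8 was 0.16. Egln1 (PHD2) and Egln3 (PHD3) do the same reaction as Egln2 and are known HIF target genes. Egln1 gave 1952, 1743 and 2477 counts in the control and 3230, 2833 and 2802 in the Ni libraries. Egln3 gave 612, 375 and 951 counts against 1381, 1048 and 1054. Both were higher in every Ni library than in every control library, as were 7.97% of all tested genes. For Egln3 the groups nearly touched, at 57.0 CPM in control replicate 3 and 58.2 CPM in Ni replicate 3. Egln2 had 3740, 3960 and 1975 counts against 2234, 2742 and 1948. The difference between the paralogs in their change was not tested.

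Lists of genes that write or read the marks the members remove were also compared. At an unadjusted p of 0.05, 7.59% of all tested genes were higher and 5.83% lower. The counts in these lists were not tested against those shares. Of 28 histone lysine methyltransferases, 0 were higher and 2 lower at an unadjusted p of 0.05, Kmt2b (log2 fold change -0.30) and Ezh1 (-0.25), with a median of -0.10. Of 4 genes of DNA methylation, the methyltransferases Dnmt1, Dnmt3a and Dnmt3b and their partner Uhrf1, Dnmt3a was lower (-0.24) and the median was -0.10. Of 14 m6A writers and readers, Mettl16 (-0.27) and Ythdf2 (-0.35) were lower and the median was -0.09. The 2 flavin-dependent histone demethylases, Kdm1a (0.05) and Kdm1b (0.17), did not pass. Among 19 tested genes of 2-oxoglutarate and ascorbate supply, Idh3b (-0.26) and Fh1 (-0.26), both enzymes of the tricarboxylic acid cycle, were lower, and the median was -0.05. No gene of these lists passed an adjusted p of 0.05 in edgeR with all libraries. Without control replicate 3, 1 methyltransferase of histones was higher and 1 lower at that threshold. In the same fit, 1 gene of DNA methylation, 1 m6A gene and 3 supply genes were lower, and 0 flavin-dependent demethylases passed. Of all genes there, 8.69% passed as higher and 6.49% as lower.

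**Figure D5:**
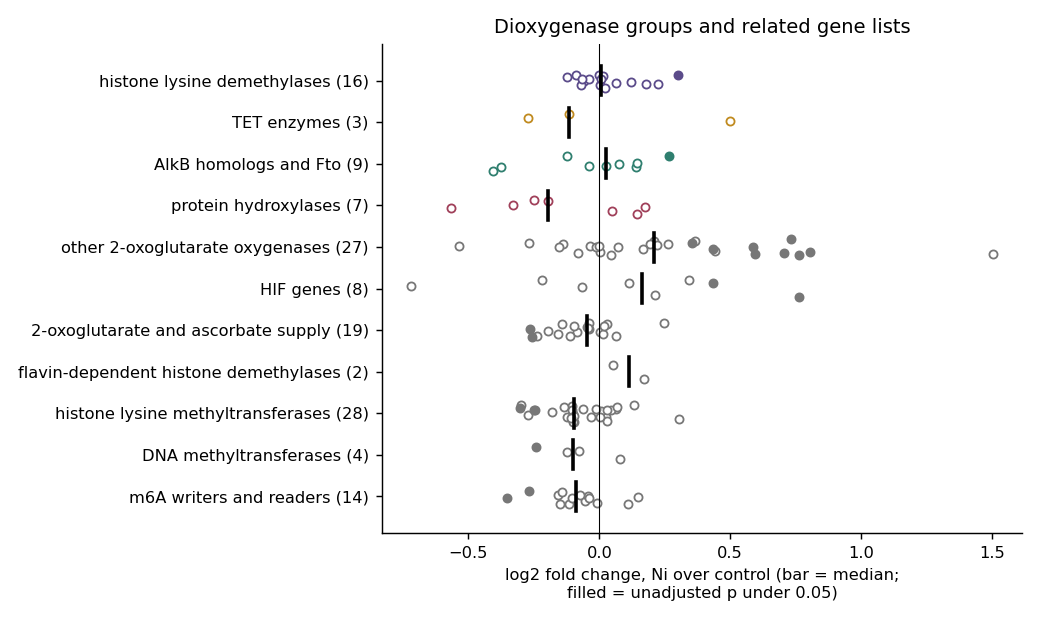
Log2 fold change of Ni over control for each tested gene of the 4 dioxygenase groups (coloured) and of 7 related lists (grey), with the number of genes in brackets, a bar for the median and filled points for an unadjusted p below 0.05. The medians of the 4 groups lie between -0.20 and 0.027, and that of the other 2-oxoglutarate oxygenases is 0.21.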

How the data were processed

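The authors deposited raw counts per gene and FPKM for 6 libraries (NEBNext Ultra RNA kit), with build GRCm38 named in the submitters' processing notes. The aligner, counter and strand setting were not given in the sources used here. The labels and the study's methods state different dexamethasone concentrations. The deposited FPKM followed from the counts, the deposited gene lengths and a library total, and were used for levels and for the limma alternatives only. Counts were tested with edgeR 4.0.16 (R 4.3.3; filterByExpr, TMM, robust quasi-likelihood fit, group as the only term), with Benjamini-Hochberg adjustment over 14624 genes and two-sided p. Intervals are 95%. Whether groups overlapped was judged from log2 CPM (prior count 2). Scripts were tested on simulated counts with the same dispersion for every gene and no outlying library. This checked the code and not the error rates in these data. DESeq2 1.42.0, limma 3.58.1 on log2(FPKM + 1) and log2(FPKM + 0.1), other scalings and filters, left-out libraries, a gene-length correction and a replicate block were alternatives. Intervals and floors cover counting error and the spread of these libraries only. Members and lists were chosen with earlier results of these data known. Every member is accounted for. Values per library are given for members at an unadjusted p under 0.05, without overlap, highest or lowest in level, and the TET genes. Other per-library values were chosen after their values were seen. At most 4 genes of a related list are given with values, by smallest p, with Egln3 counted under the HIF genes. Other names in those lists were chosen after their values were seen. Genes of the cell marker and sex-linked lists were not picked by this rule.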

Additional observations from a re-analysis of the deposited data

How the results depend on the processing

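Same-numbered control and Ni libraries correlated in their deviations from the group means at 0.010, 0.26 and 0.14. Libraries of unlike number correlated at -0.22 to 0.065. The labels number the replicates without stating a pairing, and these values do not settle whether they were paired. The main fit did not pair them. With the replicate block, 0 members passed an adjusted p of 0.05 and 3 an unadjusted p of 0.05 (18.9% of all genes), against 0 and 2 without it, while 315 of all genes passed the adjusted threshold against 0. When a replicate block was fitted after removal of the gene-length trend, 4 members passed an unadjusted p of 0.05 (19% of all genes). In limma 1 did, whether the pseudocount was 1 or 0.1 and whether or not low genes were filtered at a pseudocount of 1. The share of all genes was 12% with the filter at either pseudocount, and 6.97% of 25876 genes with no filter. With 1 library left out in turn, the number of members ranged from 0 to 4 at an adjusted p of 0.05, from 0 to 10 at an unadjusted p and from 4 to 18 without overlap, and the median log2 fold change from -0.066 to 0.041. The upper ends of the 3 counts and the lowest median came without control replicate 3. With no filter on low counts, 1027 of 25876 genes passed an adjusted p of 0.05, and DESeq2 gave 261, none of them members. Low counts limit Tet1, Alkbh2, Kdm8 and Hspbap1.

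The direction changed under at least 1 alternative for 12 members, whose log2 fold changes were at most 0.12 in size, and the cause was not tested. With 1 library left out, the values ran from -0.069 to 0.048 for Kdm2a, from -0.10 to 0.11 for Kdm2b, from -0.052 to 0.076 for Jmjd1c, from -0.073 to 0.022 for Kdm5a, from -0.054 to 0.044 for Kdm5c, from -0.15 to 0.027 for Kdm6a, from -0.066 to 0.11 for Kdm6b, from -0.00044 to 0.11 for Phf2, from -0.041 to 0.064 for Alkbh1, from -0.54 to 0.14 for Alkbh2, from -0.097 to 0.012 for Alkbh3 and from -0.0022 to 0.096 for Hif1an. Kdm2a (-0.00073 with all libraries) was 0.0025 with DESeq2's size factors, 0.0085 with upper quartile factors, 0.012 with no filter, 0.0061 with at least 10 counts in every library, 0.0029 with DESeq2, 0.0036 with limma at a pseudocount of 1, with or without the filter, 0.0043 at 0.1 and 0.0014 with the replicate block. Kdm2b was -0.020 with the gene-length trend removed and -0.014 with the replicate block added to it. Jmjd1c was -5.6e-05 with library totals alone, -0.044 with the length trend removed and -0.043 with the block added. Kdm5c was -0.0053 and -0.0079 under the same pair. The other 23 members kept their direction under all 18 alternatives.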
